A study of Homo sapiens with 5 samples.

Results

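The genes described here are YAP1, its paralogue WWTR1, the DNA-binding partners TEAD1 and TEAD4, 4 target genes (CCN1, CCN2, ANKRD1 and AMOTL2) and the regulators LATS2 and AJUBA. These 10 genes of the 19775 with a probe set of their own were taken by symbol, and all 24 probe sets listed for them were used. None of the 24 is listed for a second gene. CCN1 and CCN2 are known by the older names CYR61 and CTGF, WWTR1 as TAZ and AJUBA as JUB. The genes were selected on signals of these same arrays, in particular the CCN1 and CCN2 signals with miR-483-5p against the control, so their values are given as a description and without a test. No threshold was set in choosing them.

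The cells were MHH-ES-1, a cell line established from a human Ewing sarcoma, harvested 48 h after lipid transfection with microRNA mimics, short synthetic duplexes that act as the mature microRNA, at 50 nM. The groups were the 5p arm of miR-483 (2 arrays), its 3p arm (1 array) and a scrambled control mimic (2 arrays), on Affymetrix HG-U133 Plus 2 arrays, which read each gene through one or more probe sets. All 3 groups thus share the cell line, the transfection and the mimic dose. The second array of each pair is called a repeat of the first, and a separate culture is not stated, so standard errors and p-values measure the spread between arrays, which may be technical.

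The Hippo pathway is a kinase cascade in which the kinases STK3 and STK4 activate LATS1 and LATS2, which phosphorylate YAP and TAZ and so hold them in the cytoplasm. Unphosphorylated YAP and TAZ enter the nucleus and, having no DNA-binding domain, act through the TEAD factors on genes such as CCN1, CCN2 and ANKRD1. This control acts largely on the protein, so transcript levels of YAP1 and WWTR1 need not follow the activity of the proteins. In Ewing sarcoma the pathway is studied mainly for its link to migration and to cells with a low activity of the EWSR1-FLI1 fusion.

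TEAD factors bind a short element, searched here as GGAATG on either strand (CATTCC on the other strand) in windows from 250 bases before to 50 bases after each annotated gene start, in RefSeq sequences of GRCh38.p14. Of 35116 such windows, 14.0% held at least 1 copy, 1.37% at least 2 and 0.128% at least 3. RefSeq windows were at hand for 7 of the 10 genes, 10 windows in all, and 6 windows of 6 different genes held a copy. CCN1, TEAD1 and TEAD4 were not searched. The 4 windows below are those of CCN2, with the most copies, of YAP1 and AMOTL2, whose signals were higher with miR-483-5p, and of ANKRD1, a target with copies but a dim probe set. Each is written 5′ to 3′ on the strand of its gene, with the TEAD element in capitals.
CCN2, chr6:131951323-131951622, minus strand: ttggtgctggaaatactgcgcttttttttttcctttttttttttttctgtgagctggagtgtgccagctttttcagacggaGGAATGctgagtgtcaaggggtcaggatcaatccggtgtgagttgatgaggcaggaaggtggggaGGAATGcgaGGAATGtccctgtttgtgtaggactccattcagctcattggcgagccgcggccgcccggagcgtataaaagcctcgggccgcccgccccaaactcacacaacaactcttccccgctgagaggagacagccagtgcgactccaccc
ANKRD1, chr10:90921038-90921337, minus strand: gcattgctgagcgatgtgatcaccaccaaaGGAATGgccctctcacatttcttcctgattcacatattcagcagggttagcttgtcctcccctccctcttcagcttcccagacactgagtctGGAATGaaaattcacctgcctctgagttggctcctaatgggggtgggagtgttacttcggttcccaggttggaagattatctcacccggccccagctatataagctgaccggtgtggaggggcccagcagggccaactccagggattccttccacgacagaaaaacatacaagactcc
YAP1, chr11:102110197-102110496, plus strand: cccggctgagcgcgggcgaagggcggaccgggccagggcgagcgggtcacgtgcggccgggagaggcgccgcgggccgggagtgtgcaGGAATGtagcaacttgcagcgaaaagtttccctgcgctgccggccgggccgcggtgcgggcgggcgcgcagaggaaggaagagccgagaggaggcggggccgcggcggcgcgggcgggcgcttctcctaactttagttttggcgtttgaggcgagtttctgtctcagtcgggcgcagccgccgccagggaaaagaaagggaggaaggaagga
AMOTL2, chr3:134374398-134374697, minus strand: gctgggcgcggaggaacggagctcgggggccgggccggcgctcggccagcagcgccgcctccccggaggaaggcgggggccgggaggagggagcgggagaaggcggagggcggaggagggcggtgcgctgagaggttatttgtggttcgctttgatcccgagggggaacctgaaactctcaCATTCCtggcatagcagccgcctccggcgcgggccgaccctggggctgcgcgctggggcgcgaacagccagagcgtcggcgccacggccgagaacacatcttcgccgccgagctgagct

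The CCN2 window held 3 copies, whose first bases lay 169, 104 and 95 bases before the start. The ANKRD1 window held 2 copies, at 220 and 128 bases before the start, and the YAP1 window held 1, at 162 bases. The second of the annotated starts of AMOTL2 had a copy on the opposite strand at 69 bases before the start, and its first had none. LATS2 had a copy 10 bases after the start and the second start of AJUBA had one 59 bases before it, whereas neither WWTR1 window held one. The CArG box, the element bound by SRF, was in 1.29% of all windows on either strand and in none of the 10, which include CCN2 but not CCN1. These matches describe the letters of the windows and are not measured binding.

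**Figure D1:**
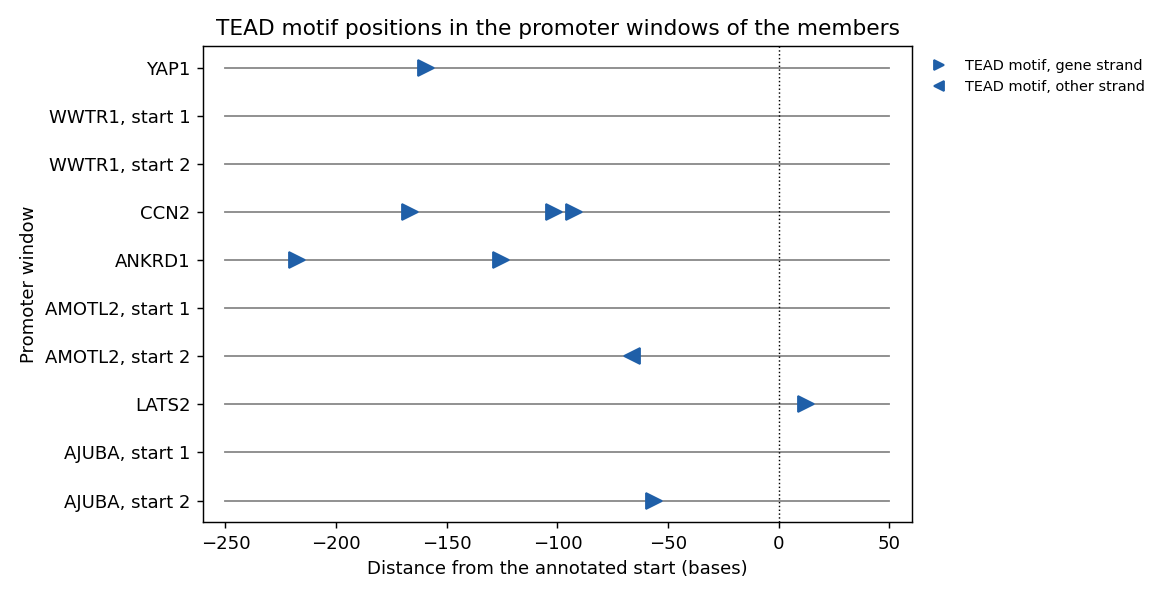
Positions of the TEAD element in the 10 promoter windows of the 7 genes with RefSeq windows. The horizontal axis is the distance in bases from the annotated start (dotted line), each grey line is a window, and each triangle is a copy of the element, pointing right where it lies on the strand of the gene. CCN2 has 3 copies and ANKRD1 has 2, all before the start.

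Probe set signals are linear and were scaled to one target on every array. Differences are given in log2(signal + 32), a scale that understates the change of dim probe sets, with standard errors from limma. Array medians were 39.2 to 44.9, and the median difference over the 14591 genes tested was -0.008 for miR-483-5p minus the control and -0.001 for miR-483-3p minus the control. All 7 Ewing sarcoma marker genes checked, among them CD99 and NKX2-2, had mean signals of 1041 or more, whereas the leukocyte and epithelial markers with a probe set averaged 5 to 24. The 3 leukocyte markers with a probe set of their own, all under the limit for dim genes, summed to 48.3 and 52.5 with miR-483-5p, 40.9 with miR-483-3p, and 27.1 and 39.9 on control arrays. The summed Ewing marker signals were 17811 to 19062 with miR-483-5p, 17245 with miR-483-3p and 17586 to 18298 in the control. Single markers within this sum went opposite ways. CCND1 had 6045 and 5717 with miR-483-5p, 5019 with miR-483-3p, and 4351 and 4566 on control arrays. LIPI had 900 and 825 with miR-483-5p, 967 with miR-483-3p, and 1325 and 1186 on control arrays. The miR-483-5p pair lay above both controls for 1 of the 7 and below both for 3, beside 20.3% and 22.2% of all genes. Fibroblast markers, which summed to 1371 to 1402 with miR-483-5p, 1048 with miR-483-3p and 1263 to 1283 in the control, were led by COL3A1, which mesenchymal tumour cells can also express. Of 4 endothelial markers only PECAM1 lay above the limit for dim genes, a mean signal of 27.2. Signal ratios of 3′ over 5′ probe sets, which rise with RNA degradation, were for GAPDH 1.09 and 1.1 with miR-483-5p, 1.06 with miR-483-3p, and 1.02 and 0.996 on the control arrays. For ACTB they were 1.18 and 1.07 with miR-483-5p, 1.09 with miR-483-3p, and 1.07 and 1.04 on control arrays. The GAPDH ratio and the leukocyte sum were highest with miR-483-5p and lowest in the control, which is the order of YAP1 below. Of the leukocyte markers only CD3E had that order, at 32.2 and 32.6 with miR-483-5p, 26.1 with miR-483-3p, and 9.7 and 16.8 on control arrays. PTPRC was lowest with miR-483-3p (5.9) and CD14 highest with it (8.9). The fibroblast sum was highest with miR-483-5p and lowest with miR-483-3p, the order of CCN1, CCN2 and AMOTL2. COL3A1 and PDGFRB had that order, but DCN and LUM did not. DCN had 195.8 and 184.2 with miR-483-5p against 200.7 and 185.7 on control arrays, and LUM was highest with miR-483-3p (44.4). The log2 differences of miR-483-5p minus miR-483-3p were 0.41 for COL3A1, 0.43 for PDGFRB, 0.31 for DCN and -0.26 for LUM. The part of these in the results was not tested.

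YAP1, the transcriptional coactivator itself, was higher with both arms of miR-483. Its brightest probe set, 224894_at, had signals of 999.5 and 966 with miR-483-5p, 854 with miR-483-3p, and 549 and 635 on control arrays. All 3 mimic arrays lay above both controls, and the miR-483-5p arrays above the miR-483-3p array. In RNA from whole cultures more cells with a transcript and more of it per cell cannot be told apart. The log2 difference from the control was 0.71 (SE 0.13) for miR-483-5p and 0.51 (SE 0.16) for miR-483-3p. A second bright probe set, 224895_at, had 819 and 927 with miR-483-5p, 722 with miR-483-3p, and 478 and 512 on control arrays, with the arrays in the same order of groups. Its log2 differences were 0.78 (SE 0.13) and 0.52 (SE 0.16). In the dimmer 213342_at the signals were 168 and 280.1 with miR-483-5p, 205 with miR-483-3p, and 161 and 182 on control arrays. There the first miR-483-5p array lay between the controls, and the pair differed by 0.64 on the log2 scale, more than the 0.30 between the groups.

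WWTR1, which encodes the YAP paralogue TAZ, did not separate the groups. Its brightest probe set, 202133_at, had 598 and 419 with miR-483-5p, 472 with miR-483-3p, and 511 and 382 on control arrays. The first array was the higher one in both pairs, and the log2 differences of 0.17 (SE 0.23) and 0.09 (SE 0.29) lay within that spread. Leaving out replicate 1 of miR-483-5p gave -0.07, and leaving out replicate 2 gave 0.41. Only 202134_s_at had both miR-483-5p arrays above both controls, at 169 and 232 with miR-483-5p, 165 with miR-483-3p, and 161 and 152 on the control arrays. The third, 202132_at, had 145.9 and 146 with miR-483-5p, 129 with miR-483-3p, and 169 and 111 on control arrays, a control range that holds the other 3 arrays.

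TEAD1 was higher with miR-483-5p in 1 of its 3 probe sets, by far the brightest. This probe set, 224955_at, had 1373 and 1070 with miR-483-5p, against 896 with miR-483-3p, and 934 and 845 on the control arrays. Both miR-483-5p arrays lay above the other 3, and the miR-483-3p array fell between the controls. The log2 difference was 0.44 (SE 0.17) for miR-483-5p and 0.01 (SE 0.20) for miR-483-3p. Leaving out replicate 1 of miR-483-5p gave 0.26, leaving out replicate 2 gave 0.61, and averaging the 3 probe sets gave 0.07. The dim probe sets did not show the separation: 214600_at had 43.0 and 69.4 with miR-483-5p, 81.2 with miR-483-3p, and 55.4 and 60.3 on control arrays. For 1553322_s_at the signals were 22.4 and 38.2 with miR-483-5p, 37.4 with miR-483-3p, and 36.5 and 40.4 on control arrays. TEAD4, the other TEAD factor chosen, overlapped in both of its probe sets. In 204281_at it had 908 and 736 with miR-483-5p, 886 with miR-483-3p, and 818 and 864 on control arrays, a log2 difference of -0.04 (SE 0.15) for miR-483-5p. In 41037_at the signals were 678 and 544 with miR-483-5p, 598 with miR-483-3p, and 639.7 and 669.5 on control arrays. The pair of miR-483-5p arrays spans the control range in both.

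CCN1 and CCN2, secreted matricellular proteins and the usual readouts of YAP and TEAD activity, were higher with miR-483-5p and not with miR-483-3p. For CCN1, probe set 201289_at had 885 and 868 with miR-483-5p, 479 with miR-483-3p, and 543 and 561 on control arrays. The miR-483-5p mean was 877 ± 12.3 and the control mean 552 ± 12.8 (SD, n = 2 each). The miR-483-3p array was the lowest of the 5. Log2 differences were 0.64 (SE 0.11) for miR-483-5p minus control, -0.19 (SE 0.14) for miR-483-3p minus control and 0.83 (SE 0.14) for miR-483-5p minus miR-483-3p. The other CCN1 probe set, 210764_s_at, had 545 and 662 with miR-483-5p, 360.3 with miR-483-3p, and 306 and 405 on control arrays. Here both miR-483-5p arrays were again the highest, but the miR-483-3p array lay between the controls, with a log2 difference of 0.03 (SE 0.23).

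The single CCN2 probe set, 209101_at, had 668 and 598 with miR-483-5p, 394 with miR-483-3p, and 399 and 450.2 on control arrays. The order of the groups was that of CCN1, and the miR-483-3p array lay just under the lower control. The log2 differences were 0.54 (SE 0.13) for miR-483-5p minus control, -0.10 (SE 0.16) for miR-483-3p minus control and 0.64 (SE 0.16) between the arms. AMOTL2, a target that also encodes an angiomotin-family protein able to bind and restrain YAP, followed the same order. Its probe set 203002_at had 860.3 and 752 with miR-483-5p, 538 with miR-483-3p, and 648 and 584 on control arrays. The log2 differences were 0.37 (SE 0.13) for miR-483-5p minus control, -0.18 (SE 0.16) for miR-483-3p minus control and 0.55 (SE 0.16) between the arms. ANKRD1, a muscle ankyrin repeat gene and strong YAP target in many cells, was dim on every array, at 10.9 and 20 with miR-483-5p, 15.1 with miR-483-3p, and 8.5 and 22.2 on control arrays. Without detection calls it is unknown if this signal lies above background, and ANKRD1 was the only one of the 10 under the limit for dim genes.

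LATS2, the kinase that phosphorylates YAP and is itself induced by it, was lower on the single miR-483-3p array than in either control in all 4 probe sets. Of all non-control probe sets, 34.4% were placed so. Probe set 227013_at had 545 and 439 with miR-483-5p, 369.8 with miR-483-3p, and 494 and 421 on control arrays. The miR-483-5p arrays overlapped the controls with a log2 difference of 0.09 (SE 0.16), which was -0.13 as the mean over the 4 probe sets, and miR-483-3p gave -0.28 (SE 0.20). Probe set 223380_s_at had 328 and 293 with miR-483-5p, 303 with miR-483-3p, and 392 and 352 on control arrays. All 3 mimic arrays lay below both controls there, so the probe sets of LATS2 disagree for miR-483-5p and have the same sign for miR-483-3p. The remaining pair were dim: 223379_s_at had 17.2 and 27.5 with miR-483-5p, 11.6 with miR-483-3p, and 30.8 and 53.1 on control arrays, and 230348_at stayed under 10 on all 5 arrays.

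AJUBA, a LIM-domain scaffold that binds and inhibits LATS kinases, had small differences that 3 of 4 probe sets share. The brightest, 225806_at, had 1108 and 1153 with miR-483-5p, 989.7 with miR-483-3p, and 895 and 943 on control arrays. For 1553764_a_at the signals were 779.8 and 893 with miR-483-5p, 778 with miR-483-3p, and 650.5 and 696.5 on control arrays. In 225807_at they were 228 and 185 with miR-483-5p, 227 with miR-483-3p, and 177 and 166.5 on control arrays. All 3 mimic arrays lay above both controls in each. The log2 differences for miR-483-5p were 0.29 (SE 0.11), 0.30 (SE 0.13) and 0.22 (SE 0.14), and for miR-483-3p 0.10 (SE 0.14), 0.20 (SE 0.16) and 0.35 (SE 0.17). The fourth, 243446_at, had 90.8 and 78.5 with miR-483-5p, 80.2 with miR-483-3p, and 97.2 and 84.2 on control arrays, so it gave no separation of miR-483-5p from the control.

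**Figure D2:**
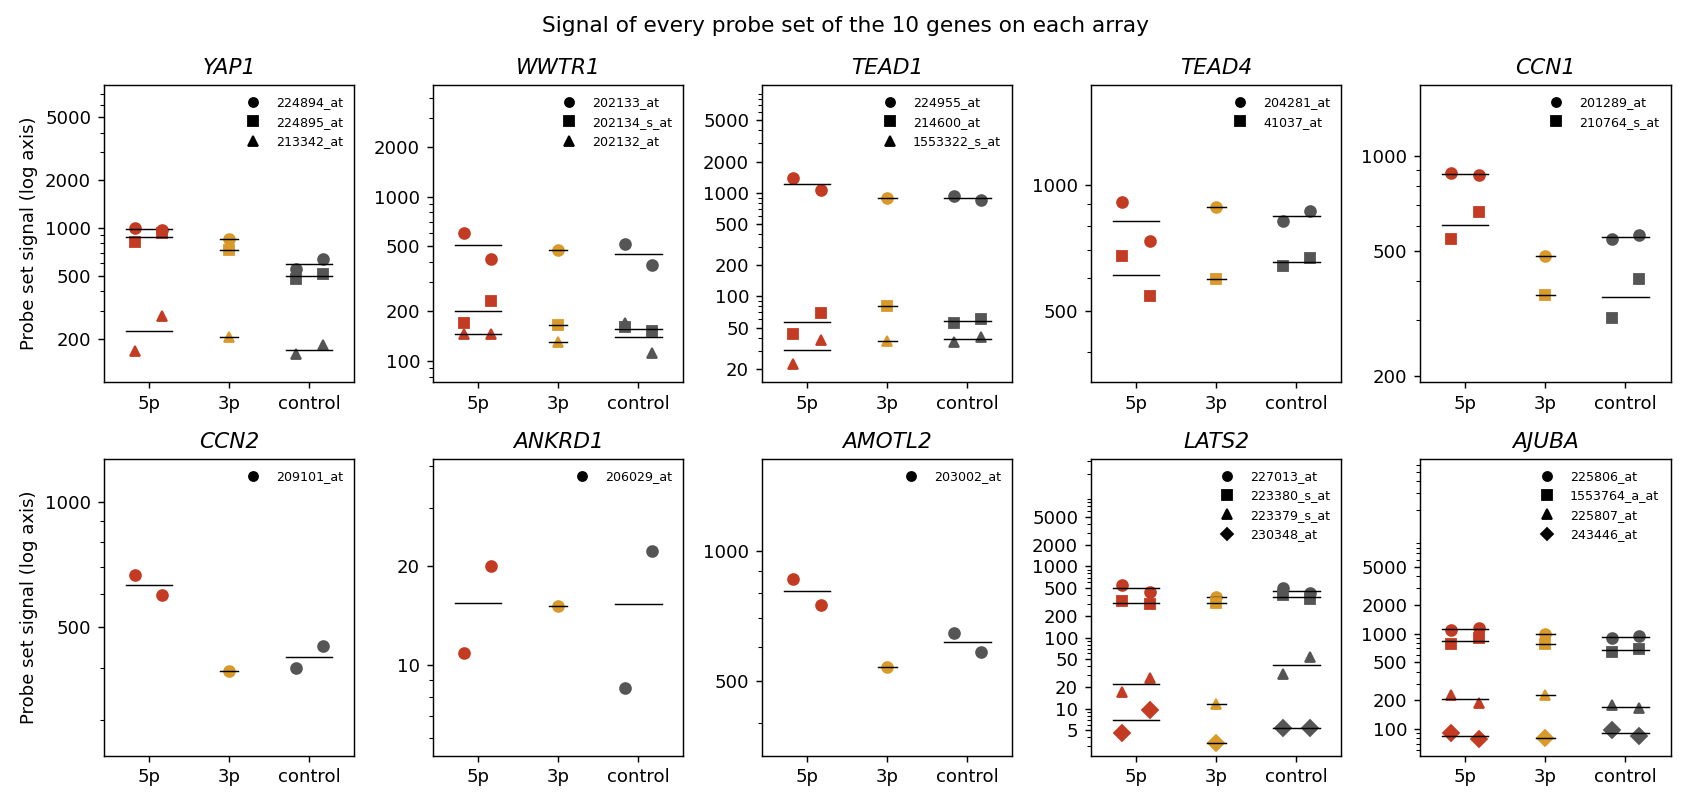
Signal of all 24 probe sets on the 5 arrays, on a log axis, 1 panel for each of the 10 genes. Columns are miR-483-5p (red, 2 arrays), miR-483-3p (ochre, 1 array) and scrambled control (grey, 2 arrays), marker shapes are probe sets, and short lines are group means. CCN1 (201289_at) stands at 885 and 868 with miR-483-5p, against 479 with miR-483-3p, and 543 and 561 on the control arrays, whereas YAP1 (224894_at) is also high with miR-483-3p, at 854.

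Read across the genes, each by its brightest probe set, the miR-483-5p pair exceeded the control pair without overlap for 6 of the 9 genes above the limit for dim genes (YAP1, TEAD1, CCN1, CCN2, AMOTL2 and AJUBA) and lay wholly below it for 0. Among all 14591 genes tested, 20.3% were placed so on the high side and 22.2% on the low side. By probe set, 11 of the 24 were wholly higher and 2 wholly lower, where 16.1% and 20.5% of all non-control probe sets were. The median log2 difference of the 9 was 0.37, or 0.18 when each gene was the mean of its probe sets. These are the values with which the genes were chosen, and nothing is read from the count. The single miR-483-3p array lay above both controls for YAP1, AJUBA and TEAD4, 3 of 9, where 33.4% of all genes did. It lay below both for CCN1, CCN2, AMOTL2 and LATS2, 4 of 9, where 35.4% did, so neither share is far from that of all genes. By probe set it was 9 of 24 above and 9 of 24 below, where 32.9% and 34.4% of all were. Both miR-483-5p arrays exceeded the miR-483-3p array for 7 of 9, all but WWTR1 and TEAD4, where 34.4% of all genes did, and lay wholly below it for 0 of 9, where 33.5% did. By probe set, 14 of 24 were higher and 1 lower, where 31.3% and 34.7% of all were. The comparisons share arrays and are therefore not independent of each other. As the genes were chosen on the miR-483-5p arrays, nothing is read from the counts between the arms either. No gene of the 14591 had a limma adjusted p under 0.05 in any of the 3 comparisons (0% of genes). The lowest limma adjusted p was 0.226 for miR-483-5p minus control, 0.278 for miR-483-3p minus control and 0.564 for miR-483-5p minus miR-483-3p. The genes under 0.05 without adjustment numbered 1563 (10.7%) in the first, 957 (6.56%) in the second and 970 (6.65%) in the last. The 1563 were 773 higher and 790 lower with miR-483-5p, a split that became 890 and 579 when each array was centred on its median.

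**Figure D3:**
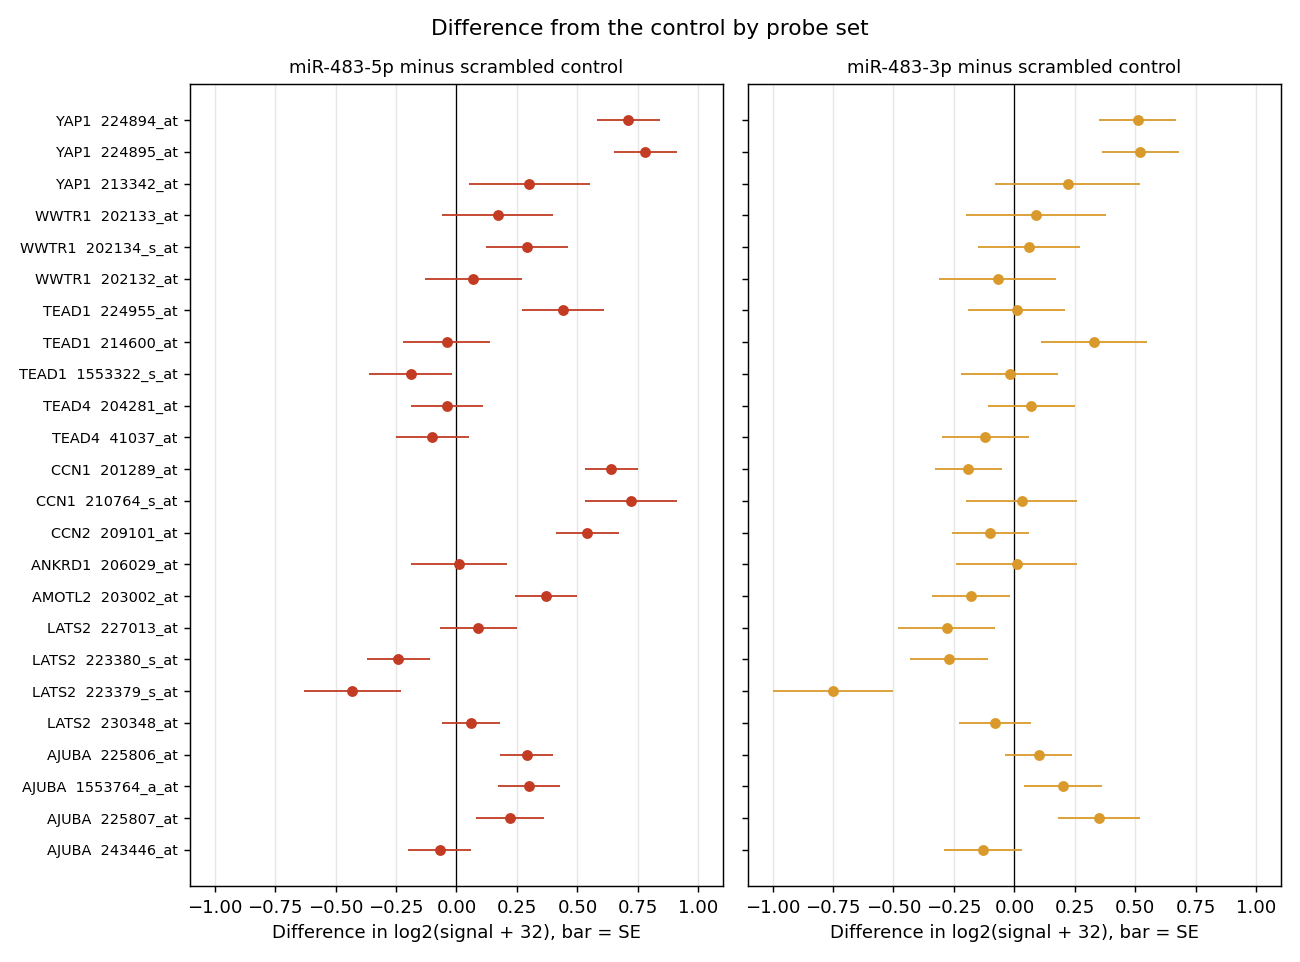
Difference from the scrambled control in log2(signal + 32) for each of the 24 probe sets, with miR-483-5p on the left and miR-483-3p on the right. Points are limma estimates of the fit over all probe sets and bars are 1 standard error. Both CCN1 probe sets are at 0.64 or more with miR-483-5p, against -0.19 and 0.03 with miR-483-3p, while the bright YAP1 probe sets lie to the right of 0 in both panels.

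Other genes of the pathway were taken from lists by role, and for these the limma test over all genes was used. The lists were chosen with earlier results of these data known, so their p-values serve as description. None of the 14591 genes passed it in any of the 3 comparisons, so no listed gene could. The absence of calls therefore says nothing about the lists. Of 17 other target genes of YAP, TAZ and TEAD, NUAK2 has no probe set of its own here and MYOF was dim, which left 15. As among all genes (0%), none passed the test in either direction for miR-483-5p. At an unadjusted limma p under 0.05, 3 were higher and 1 lower. Of all 14591 genes 10.7% were under it, 773 higher and 790 lower. The median log2 difference was -0.01 beside -0.008 over all genes. Over the alternative settings the median was -0.02 to 0.11. Both miR-483-5p arrays lay above the control pair for 6 of the 15 and below it for 2, beside 20.3% and 22.2% of all genes. GADD45A, a stress-induced growth arrest gene, had 282 and 276 with miR-483-5p, 184 with miR-483-3p, and 181 and 152 on control arrays, a log2 difference of 0.65 for miR-483-5p (limma adjusted p = 0.332). ARHGEF17, a guanine nucleotide exchange factor gene, and TGFB2, a TGF-beta ligand gene, differed by 0.58 and 0.56 (limma adjusted p = 0.337 for both). The 4 other probe sets of TGFB2 gave -0.44 to 0.24. At the other end, IGFBP3, an insulin-like growth factor binding protein gene, had 493 and 411 with miR-483-5p, 507 with miR-483-3p, and 709 and 667 on control arrays. Its difference for miR-483-5p was -0.58 (limma adjusted p = 0.339), with -0.89 in its other probe set. DOCK5 and FJX1 were at -0.18 and -0.14, and the 7 other DOCK5 probe sets at 0.00 to 0.25. The dim MYOF, a membrane repair gene left out of the test, had 4.0 and 4.4 with miR-483-5p, 7.6 with miR-483-3p, and 35.2 and 34.0 on control arrays. Its log2 difference for miR-483-5p was -0.88, but -0.27 and -0.14 in its 2 other probe sets. For miR-483-3p the list median was -0.01, and for miR-483-5p minus miR-483-3p it was 0.12.

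Of 24 genes of the Hippo kinase cassette and its regulators, 23 were tested and WWC2 was dim. As among all genes (0%), none passed for miR-483-5p in either direction. At an unadjusted p under 0.05, 2 were higher and 2 lower, beside 10.7% of all genes. The median was 0.13 for miR-483-5p, or 0.02 without the first miR-483-5p array, and 0.03 for miR-483-3p. The upstream regulator NF2, known as merlin, had 168 and 181 with miR-483-5p, 113 with miR-483-3p, and 76.4 and 142 on control arrays, a log2 difference of 0.58 (limma adjusted p = 0.438), with -0.07 to 0.20 in its 7 dimmer probe sets. FRMD6, a FERM-domain activator of the cascade, and AMOTL1, a paralogue of AMOTL2, differed by 0.41 and 0.36, with 0.42 in the other FRMD6 probe set and -0.27 to 0.17 in the 3 others of AMOTL1. The polarity scaffold gene DLG5 had 204 and 198 with miR-483-5p, 356 with miR-483-3p, and 322 and 330.4 on control arrays. Its difference for miR-483-5p was -0.62 (limma adjusted p = 0.332), but 0.15 in its other probe set. WTIP and LIMD1, LIM-domain relatives of AJUBA, were at -0.39 and -0.16, but the 4 other LIMD1 probe sets ranged over -0.09 to 0.58. LATS1, the paralogue of LATS2, was at 0.32, with 415 and 304 in the miR-483-5p arrays, 302 with miR-483-3p, and 334 and 230.0 on control arrays, which overlap. Its 3 dimmer probe sets gave -0.26 to 0.12.

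Among the other TEAD genes and cofactors, 5 of 6 were tested and VGLL1 was dim, at 19.2 and 21.0 with miR-483-5p, 24.7 with miR-483-3p, and 24.4 and 25.8 on control arrays. TEAD2 had 927 and 775 with miR-483-5p, 1139 with miR-483-3p, and 969 and 1072 on control arrays, and TEAD3 had 141 and 117.1 with miR-483-5p, 117.0 with miR-483-3p, and 166 and 137 on control arrays. Their log2 differences for miR-483-5p were -0.26 and -0.19, where TEAD1 was at 0.44. The vestigial-like cofactors VGLL2, VGLL3 and VGLL4, which compete with YAP for TEAD, were at -0.06, 0.37 and -0.20. The other probe sets of VGLL3 and VGLL4 gave -0.02 and 0.01. Of the 5 tested, 1 (VGLL3) was higher and 0 lower at an unadjusted p under 0.05, beside 10.7% of all genes. The limma adjusted p of the 5 was 0.428 or more. VGLL4 was at -0.56 for miR-483-3p (limma adjusted p = 0.656). Of the remaining CCN family, CCN4, CCN5 and CCN6 were dim, with no signal above 28.2 on any array, and CCN3 had 45.9 and 62.6 with miR-483-5p, 69.8 with miR-483-3p, and 59.8 and 58.4 on control arrays.

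CCN1 and CCN2 are also targets of SRF with its MRTF cofactors and of TGF-beta signalling, so both programmes were listed. Of 10 contractile and cytoskeletal SRF targets, FLNA has no probe set of its own here and CNN1 was dim. Of the 8 tested, 2 were higher and 0 lower with miR-483-5p at an unadjusted p under 0.05, beside 10.7% of all genes. The median was -0.03. SRF itself, the focal adhesion gene VCL and the tropomyosin gene TPM1 were at 0.47, 0.40 and 0.29, whereas MYL9, CNN2 and FHL2 were at -0.33, -0.25 and -0.19. The other VCL probe set gave -0.57, that of SRF -0.16, that of MYL9 -0.04, and the 5 others of TPM1 -0.24 to 0.34. For miR-483-3p, on 1 array, SRF was at 0.47 by the same probe set. Of the TGF-beta list, 4 genes were tested and BHLHE40 was dim, at 18.1 and 6.3 with miR-483-5p, 4.1 with miR-483-3p, and 4.4 and 5.5 on control arrays. SMAD7, an inhibitor induced by the pathway, was at 0.41, SKIL at 0.13, TGFB1 at -0.20 and TGFBI, a secreted target, at -0.52. At an unadjusted p under 0.05, 1 was higher and 1 lower, beside 10.7% of all genes (limma adjusted p of 0.408 or more).

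**Figure D4:**
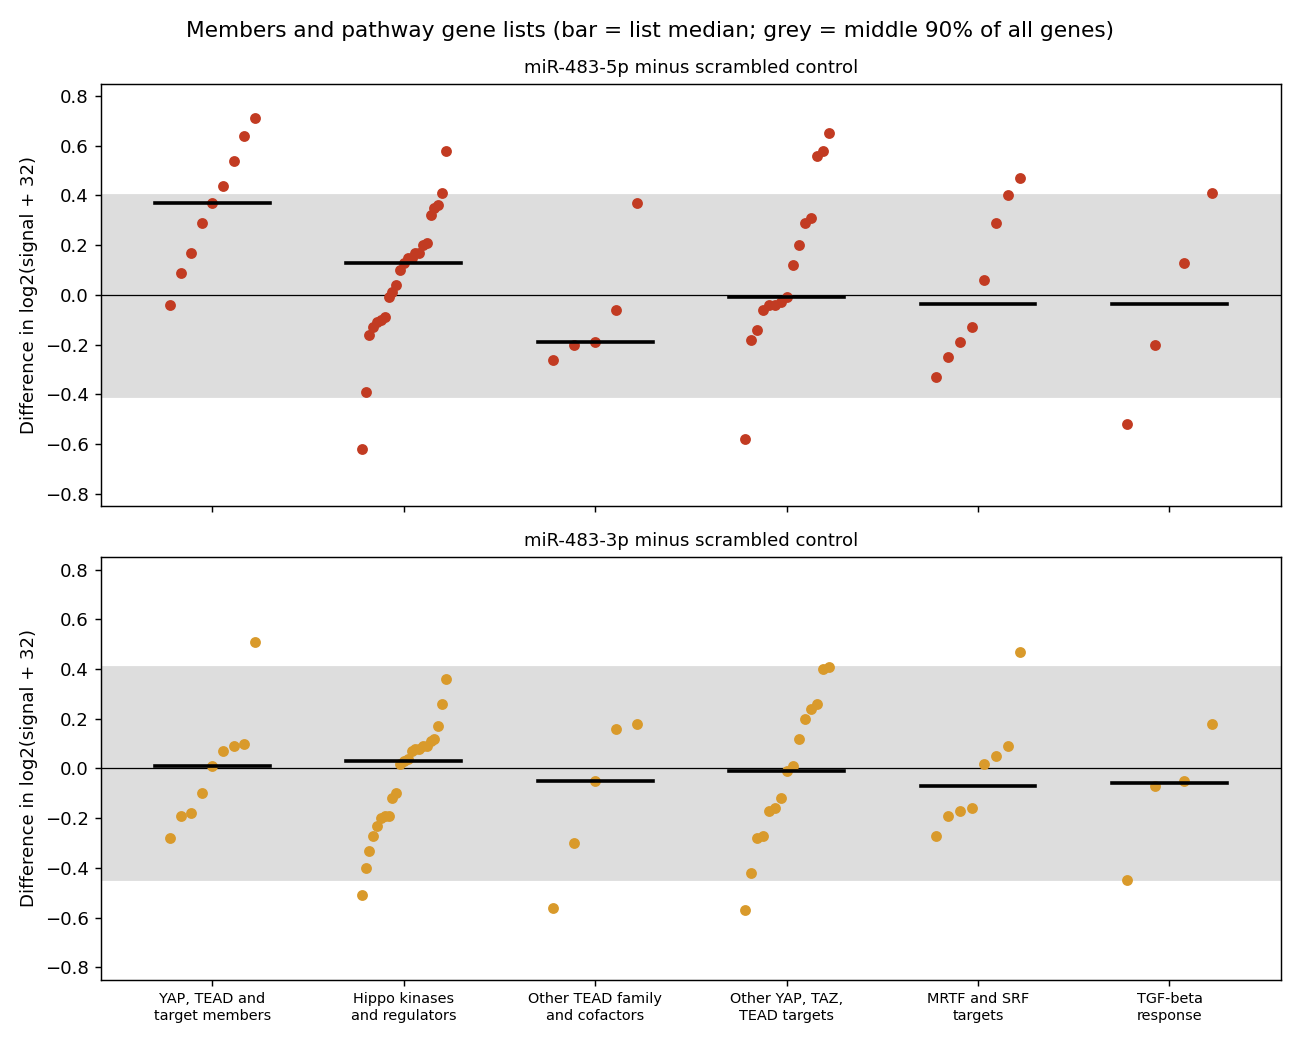
Difference from the scrambled control in log2(signal + 32) for the 9 members above the limit for dim genes and for 5 pathway lists, miR-483-5p above and miR-483-3p below. Each point is a gene by its brightest probe set, the bar is the list median, and the grey band holds the middle 90% of all genes tested. The target list centres at -0.01 in both panels, and the median of the members, whose miR-483-5p values were known when they were chosen, is 0.37 above and 0.01 below.

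Genes were also ranked by how closely their profile over the 5 arrays followed that of CCN1 or CCN2, as the root mean square difference of log2 values after centring each gene on its mean. The closest to CCN1 were NOG, ZNF217, HECTD2, ZC3H6 and CCN2, at 0.070, 0.080, 0.082, 0.088 and 0.089. The closest to CCN2 were SATB1, TUBB1, ZC3H6, GPSM2 and ZNF217, at 0.032 to 0.057, and CCN1 was the 22nd. Of the other members, AMOTL2 was the 51st gene from CCN1, TEAD1 the 172nd, AJUBA the 756th and YAP1 the 1506th, at 0.274. LATS2 was the 1735th, WWTR1 the 5620th and TEAD4 the 8244th. The members were chosen with these signals known, so nothing is read from their ranks. ZNF217, a zinc finger transcription factor gene near both, had 681 and 684 with miR-483-5p, 419.6 with miR-483-3p, and 451 and 498 on control arrays. NOG, which encodes the BMP antagonist noggin, had 78.4 and 78.0 with miR-483-5p, 28.8 with miR-483-3p, and 45.6 and 45.0 on control arrays. With 5 arrays in 3 groups, many of the 14591 genes can share such an order.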

How the data were processed

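Arrays were grouped by the labels. The authors deposited linear intensity values of 54675 probe sets on 5 HG-U133 Plus 2 arrays, scaled so that the trimmed mean of each column is 150. GCOS and Partek are named in the submitters' processing notes, and their versions, their roles and the signal algorithm are not given in the sources used here. In this work 62 control probe sets took no part in tests. The platform annotation gave 41091 probe sets 1 symbol, 1801 several and 11721 none, and 41037 matched the RefSeq table of GRCh38.p14 by gene identifier, used for names. Each gene was represented by its probe set with the highest mean. A gene was tested where that mean reached a signal of 27.2, the 40th percentile over probe sets, as 14591 did. Values as log2(signal + 32) were fitted with limma 3.58.1 in R 4.3.3, 1 mean per group, with 2 residual degrees of freedom and 4.96 from the prior, two-sided, with Benjamini-Hochberg adjustment at 0.05. The single miR-483-3p array is assumed to vary like the pairs. Differences and standard errors of the member probe sets come from the same model over all 54613 non-control probe sets, those of list genes from the fit of genes. The fit was run on simulated data with independent normal noise, with a check that mean estimates matched the changes set. The share of changed genes that it recovered is not reported here.

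The members and lists were chosen with earlier results of these data known. Genes named from a list are the 3 highest and 3 lowest by difference of miR-483-5p from the control, or all of a list of 6 or fewer, and the 5 nearest profiles to CCN1 and CCN2. LATS1 was named after its values were seen. Signals over arrays measure RNA per total RNA, not protein. Precision is limited by the number of arrays. Alternatives were median centring, quantile normalization, other filters, pseudocounts of 1 and 100, other uses of a gene's probe sets, an intensity trend, leaving out each paired array and a block for first arrays against repeats. Mature miR-483 sequences and protein sequences were not used here. One gene of a list is not reported here.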

Additional observations from a re-analysis of the deposited data

How the results depend on the processing

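The count of 0 genes called for miR-483-5p minus the control became 37 with each array centred on its median, 1 with a filter at the 60th percentile, 33 with a pseudocount of 100 and 39 with a variance prior that follows intensity. For miR-483-3p minus the control it became 2, 1 and 1 with median centring, a pseudocount of 100 and the intensity prior, and for miR-483-5p minus miR-483-3p it became 7 with median centring. The cause was not tested. It was 0 under every other alternative, including each miR-483-5p and control array left out in turn (0 to 0). With the replicate block for first arrays against repeats it was also 0, with 2003 genes at an unadjusted p under 0.05 against 1563 without the block. The labels do not say that this order pairs the arrays, and the deviations of the pairs correlated at 0.17 across genes.

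The log2 difference of miR-483-5p minus the control stayed above 0 under all 14 alternatives for CCN1 (0.58 to 0.68), CCN2 (0.46 to 0.62), YAP1 (0.59 to 0.81), AMOTL2 (0.28 to 0.46), AJUBA (0.18 to 0.33) and TEAD1 (0.07 to 0.61). The genes were chosen with these differences known, so nothing is read from their sign. For a single gene, the filters, the intensity trend, the block and the fit of single probe sets cannot move the difference. Those settings are therefore no test of it. The difference changed sign in 3 alternatives for LATS2 and in 2 for WWTR1. For TEAD4, at -0.04, it rose above 0 only without miR-483-5p replicate 2 (0.11). For miR-483-3p minus the control YAP1 stayed at 0.41 to 0.61, CCN1 at -0.22 to -0.08, CCN2 at -0.18 to -0.02 and AMOTL2 at -0.25 to -0.11 over 13 alternatives. Leaving out a miR-483-5p array cannot move these values either. The median of the other target genes for miR-483-5p changed sign in 8 of 14. Without detection calls, no limit of signal over background could be set for the dim probe sets.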
